A study of Spinacia oleracea with 6 samples.

Results

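Transcript levels of 4 protein-folding genes were compared in spinach, Spinacia oleracea, after 4 days of heat. The genes were HSC70-1 (NCBI gene 110792092), HSC70-9 (gene 110785563), BiP (gene 110783146) and CPN21 (gene 110784547), and the symbol of each is LOC followed by that number. They were chosen by gene number, as named chaperones of more than 1 cell compartment, with earlier results of these data known. They are 4 of the 32450 genes in the deposited count table. RNA was sequenced from 3 libraries of plants under days of 35 °C and nights of 25 °C (heat) and from 3 libraries of plants under days of 20 °C and nights of 15 °C (control), all kept in an illumination incubator. The labels name neither the tissue nor the cultivar, and they do not say whether the 3 libraries of a regime are separate plants. A p-value here thus sets the difference between regimes only against the spread of these libraries, and that spread may be technical.

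Heat shock proteins of 70 kDa, HSP70, bind unfolded stretches of other proteins and release them in a cycle driven by ATP. The HSC70 proteins are cognates of this family that are present without stress, while other family members are known to be induced by heat. In plant cells the family serves separate compartments, with cytosolic forms, forms inside chloroplasts and mitochondria, and BiP in the endoplasmic reticulum. Chaperonins are a different kind of machine, a barrel in which a protein folds while enclosed, and in the chloroplast the barrel of CPN60 is capped by a co-chaperonin such as CPN21, which is built of a pair of CPN10-like domains. The chloroplast chaperonin is known for folding the large subunit of Rubisco. BiP holds and folds proteins that enter the secretory pathway and is a classic marker of stress in the endoplasmic reticulum.

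The compartments rest on the gene names alone. A RefSeq gene table of the BTI_SOV_V1 assembly lists HSC70-1 with the synonym sce70, HSC70-9 with CHSP70 and HSP80, BiP with GRP-78 and HSC70, and CPN21 with Ch-CPN10 and CPN10. The prefixes in CHSP70 and Ch-CPN10 are those used for chloroplast proteins. HSC70-1 has a name of the kind given to cytosolic cognates, but sce70 is a name used for an HSP70 of the spinach chloroplast envelope, so its names do not settle its compartment. No protein or promoter sequence was compared. HSP70 genes form a family of similar copies, and the sources used here do not give how reads that align to several copies were counted, so the levels of the 3 HSP70 genes carry that uncertainty.

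The libraries held 42.3 to 48.0 M counts in heat and 48.4 to 56.8 M in control. The 10 most abundant genes took 8.04% to 9.62% of the counts in heat libraries and 12.2% to 16.1% in control libraries. The trimmed-mean (TMM) factors that edgeR uses to correct for such differences were 1.115 to 1.256 in heat and 0.778 to 0.915 in control, so a level scaled by library totals alone stands higher in heat, relative to control, than on the TMM scale. Libraries of the same group differed by more than sampling noise, with chi-square values per degree of freedom of 79.7 or more. CPM values on the TMM scale are counts per M counts of a library, with the library total multiplied by its TMM factor. Transcripts typical of leaf cells were present in both groups. On this scale psaL of photosystem I had means of 477 CPM in heat and 1973 CPM in control. All 6 leaf markers examined fell in heat, by log2 fold changes of -3.69 to -2.05. In bulk tissue, fewer cells of a type and less RNA per cell cannot be told apart. The part that a change in leaf makeup has in the values of the chaperones was not tested.

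Of the 4 chaperone genes, 3 were lower in heat and 0 higher, by the quasi-likelihood test of edgeR, adjusted by Benjamini-Hochberg over 20145 tested genes with a threshold of 0.05. All 4 passed the filter on low counts. Of all tested genes, 13.6% were lower in heat and 25.2% differed in either direction. HSC70-1 fell to 24.8% of its control level, HSC70-9 to 27.7% and CPN21 to 57.5%, while BiP stood at 71.8% and did not pass. On the TMM scale the groups did not overlap for HSC70-1, HSC70-9 and CPN21, with every heat library below every control library. The same held for 22.3% of all tested genes, and 45.2% did not overlap in either direction.

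HSC70-1, a heat shock cognate of the HSP70 family, had 425, 489 and 350 CPM in heat libraries 1 to 3, against 1546, 1902 and 1653 CPM in control libraries 1 to 3. Every heat library lay far below the lowest control library. The means were 421 ± 69.9 CPM in heat and 1700 ± 182 CPM in control (SD, n = 3 each), a log2 fold change of -2.01 (SE 0.21, 95% interval -2.50 to -1.53, adjusted p = 0.00121 by edgeR's quasi-likelihood test). Only 4.999% of tested genes had a lower log2 fold change. The call held in all 6 fits with 1 library left out, where the log2 fold change ran from -2.13 to -1.89.

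HSC70-9, the chloroplast HSP70 by its synonym, had 360, 396 and 301 CPM in heat libraries 1 to 3, against 910, 1425 and 1481 CPM in control libraries 1 to 3. The heat libraries lay close together, and control library 1 stood apart from the other control libraries, though still above every heat library. The means were 352 ± 47.5 CPM in heat and 1272 ± 315 CPM in control, a log2 fold change of -1.85 (SE 0.25, 95% interval -2.43 to -1.27, adjusted p = 0.00297 by edgeR's quasi-likelihood test, n = 3 each). Without control library 1 the log2 fold change was -2.04. The log2 fold change of HSC70-9 was lower than that of all but 5.92% of tested genes.

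CPN21, the chloroplast co-chaperonin, had 27.0, 29.4 and 33.1 CPM in heat libraries 1 to 3, against 60.05, 46.6 and 49.1 CPM in control libraries 1 to 3. The groups did not overlap, but the highest heat library and the lowest control library were closer than for the HSC70 genes. The means were 29.8 ± 3.08 CPM in heat and 51.9 ± 7.16 CPM in control, a log2 fold change of -0.80 (SE 0.16, 95% interval -1.17 to -0.43, adjusted p = 0.0120 by edgeR's quasi-likelihood test, n = 3 each). The call ended without heat library 1 (log2 fold change -0.73, adjusted p = 0.0545) and with libraries scaled by their totals alone (log2 fold change -0.34, adjusted p = 0.213).

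BiP, the chaperone of the endoplasmic reticulum, had 34.6, 29.0 and 17.3 CPM in heat libraries 1 to 3, against 40.5, 28.9 and 43.2 CPM in control libraries 1 to 3. The groups overlapped, since control library 2 lay between heat libraries 1 and 3, and heat library 3 was the lowest of all. The means were 26.9 ± 8.85 CPM in heat and 37.5 ± 7.60 CPM in control, a log2 fold change of -0.48 (SE 0.28, 95% interval -1.14 to 0.18, adjusted p = 0.251 by edgeR's quasi-likelihood test, n = 3 each). The interval takes in both a clear fall and a small rise. Without heat library 3 the log2 fold change was -0.24. With libraries scaled by their totals alone it was -0.03 (adjusted p = 0.946).

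**Figure D1:**
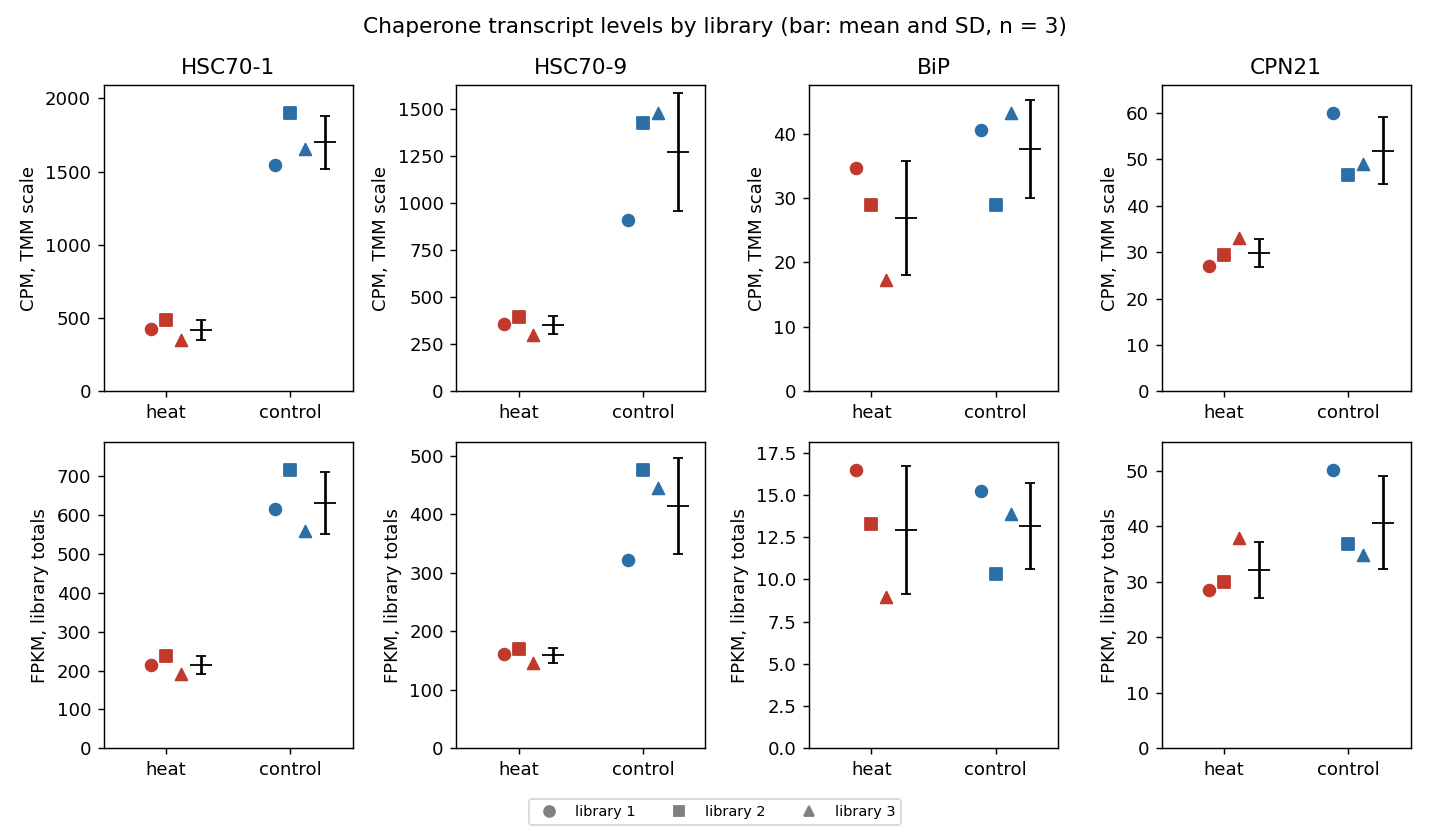
Levels of HSC70-1, HSC70-9, BiP and CPN21 in each heat library (red) and control library (blue), as CPM on the TMM scale (upper row) and as the authors' FPKM, which are scaled by library totals (lower row); marker shapes give the library number, and bars give the mean and SD of 3 libraries. Heat and control separate on both scales for HSC70-1 and HSC70-9, CPN21 separates on the TMM scale alone, and BiP overlaps on both.

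The scale of the libraries moved the values of all 4 genes by a similar amount. With library totals alone, the median over all tested genes became a log2 fold change of 0.47, against 0.01 on the TMM scale. Under that scaling HSC70-1 stood at -1.56 (adjusted p = 0.00175) and HSC70-9 at -1.38 (adjusted p = 0.00326), and both stayed past the threshold of edgeR's quasi-likelihood test, where 7.30% of tested genes were called lower. Relative to the median of all genes under that scaling, the log2 fold changes were -2.03 for HSC70-1, -1.86 for HSC70-9, -0.81 for CPN21 and -0.50 for BiP. Other scaling factors shift all genes by nearly the same amount. The similar shift and the values relative to the median thus follow by construction and are not separate results. CPN21 was called with TMM or DESeq2's scaling factors and not with library totals, while the HSC70 genes were called with all 3.

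**Figure D2:**
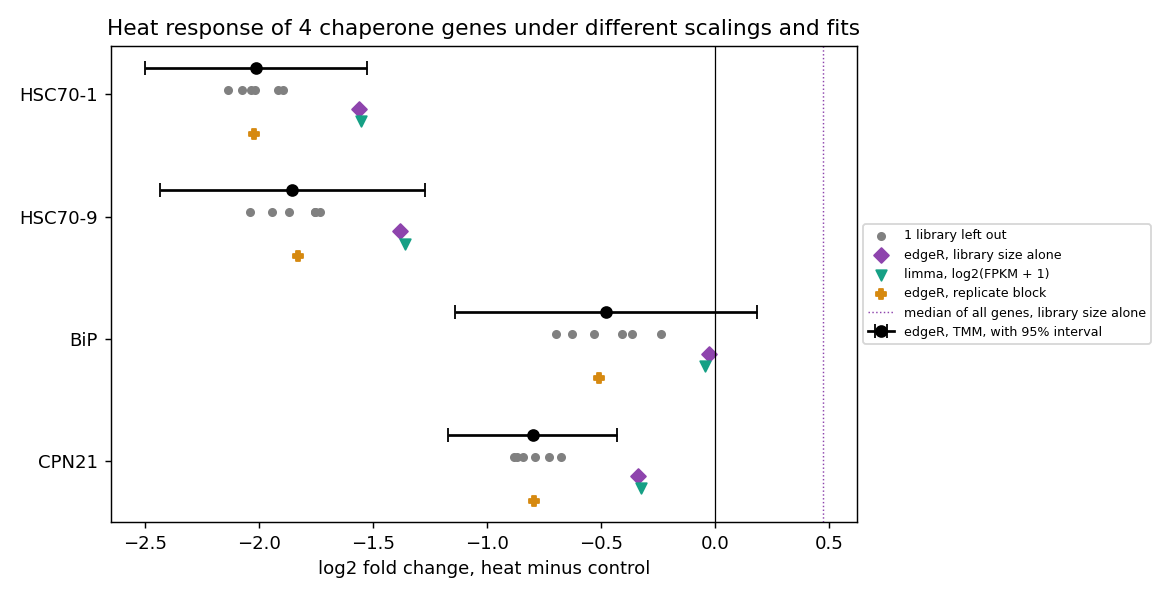
Log2 fold change, heat minus control, of the 4 genes by edgeR on the TMM scale with its 95% interval (black), with 1 library left out (grey), with library totals alone (purple), by limma on log2(FPKM + 1) (green) and with the replicate number as a block (orange). The HSC70 genes lie below -1 under every setting drawn, while CPN21 moves to -0.34 and BiP to -0.03 under library totals, where the median of all genes (dotted line) lies at 0.47.

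Levels of different genes were compared per length, with the FPKM values that the authors computed from counts, library totals and 1 fixed length per gene. Those lengths were 2298 bp for HSC70-1, 2592 bp for HSC70-9, 2427 bp for BiP and 1095 bp for CPN21. In each of the 6 libraries the order of FPKM levels was HSC70-1, HSC70-9, CPN21 and BiP, from high to low. No neighbours in this order overlapped within a group.

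HSC70-1 had 214, 237 and 191 FPKM in heat libraries 1 to 3 and 616, 717 and 560 FPKM in control libraries 1 to 3. HSC70-9 had 161, 170 and 146 FPKM in heat libraries 1 to 3 and 321, 476 and 445 FPKM in control libraries 1 to 3. Both HSC70 genes were lower in every heat library than in any control library on this scale too, so 2 of the 4 genes separated by FPKM with heat below control, as did 10.5% of all tested genes. CPN21 had 28.5, 29.9 and 37.9 FPKM in heat libraries 1 to 3 and 50.2, 36.8 and 34.9 FPKM in control libraries 1 to 3. Its groups overlapped, with heat library 3 above control libraries 2 and 3. BiP had 16.5, 13.3 and 8.94 FPKM in heat libraries 1 to 3 and 15.3, 10.3 and 13.9 FPKM in control libraries 1 to 3. Its means, 12.9 ± 3.80 FPKM in heat and 13.1 ± 2.55 FPKM in control (SD, n = 3 each), differed by less than the spread within either group.

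Among the genes with reads in a library, HSC70-1 ranked 490th to 533rd by FPKM in heat libraries and 122nd to 159th in control libraries. HSC70-9 ranked 668th to 721st in heat and 194th to 274th in control. Both were among the top 3.16% of detected genes even in heat. CPN21 ranked 3236th to 4119th in heat and 1965th to 2619th in control. BiP ranked 6559th to 9946th in heat and 5716th to 7404th in control. BiP reached no higher than the top 25.8% in any library. The 4 genes together took 0.0881% to 0.105% of all counts in heat libraries and 0.234% to 0.295% in control libraries.

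Read numbers did not limit the precision of these levels. BiP in heat library 3 had the fewest reads of any of the values, 918, with a counting error of 3.30%, and HSC70-1 in control library 2 had the most, 93525, with a counting error of 0.327%. These errors cover counting only. The coefficients of variation between libraries were larger. They were 16.6% in heat and 10.7% in control for HSC70-1, and 13.5% in heat and 24.7% in control for HSC70-9. They were 10.3% in heat and 13.8% in control for CPN21, and 32.8% in heat and 20.3% in control for BiP. BiP in heat was thus the most variable of these values.

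**Figure D3:**
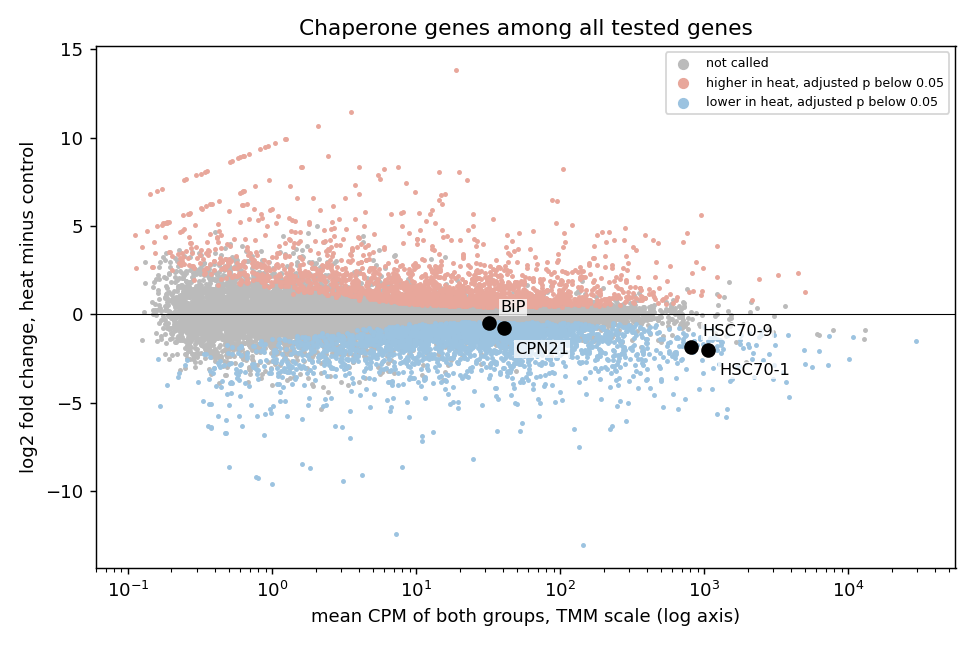
Log2 fold change, heat minus control, against mean CPM on the TMM scale (log axis) for 20145 tested genes, coloured by the call of edgeR's quasi-likelihood test, with the 4 chaperone genes in black. HSC70-1 and HSC70-9 lie among the more abundant genes, at log2 fold changes of -2.01 and -1.85, and CPN21 and BiP lie to their left and closer to 0.

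The 4 genes were also set beside genes of similar abundance, in bands chosen after the data had been seen. Of 1722 tested genes with a mean of at least 100 CPM, which include both HSC70 genes, 26.8% were lower in heat, with a median log2 fold change of -0.14. Of 9047 tested genes with a mean of 10 to 100 CPM, which include CPN21 and BiP, 16.2% were lower, with a median of 0.01. Among the 125 tested protein-coding genes that carry a name in the reference table, 73 (58.4%) were lower, 3 higher and 49 not called, with a median log2 fold change of -0.89. Ordered from the lowest log2 fold change among those 125, HSC70-1 was 24th, HSC70-9 28th, CPN21 65th and BiP 85th. A lower call was thus common among named genes, and CPN21 lay near their median.

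To compare the responses of the 4 genes with each other, the ratio of their FPKM values was taken within each library, which does not depend on how libraries are scaled. There were 6 pairs, and an exact two-sided permutation test of 3 libraries against 3 cannot give a p below 0.1 (0.15 after adjustment over these 6 pairs, as the 4 lowest values tied). For 4 of the 6 pairs, each of an HSC70 gene with BiP or CPN21, the ratio was lower in every heat library than in any control library. For the other pairs, HSC70-1 with HSC70-9 and BiP with CPN21, the groups overlapped. The 4 pairs that separated share genes with each other and are not separate results. How many of all gene pairs separate in this way was not computed. Among single genes, 45.2% did not overlap on the TMM scale in either direction. That share is of a different measure and gives no background for the ratios.

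HSC70-1 exceeded BiP 13.0-fold, 17.8-fold and 21.4-fold in heat libraries 1 to 3, against 40.3-fold, 69.5-fold and 40.4-fold in control libraries 1 to 3. The log2 ratio was lower in heat by a mean difference of -1.51 (exact permutation p = 0.1, adjusted p = 0.15). HSC70-9 exceeded BiP 9.73-fold, 12.8-fold and 16.3-fold in heat libraries 1 to 3, against 21.1-fold, 46.2-fold and 32.1-fold in control libraries 1 to 3, a mean log2 difference of -1.31 (exact permutation p = 0.1, adjusted p = 0.15). Both HSC70 genes thus stood less far above BiP, the HSP70 of the endoplasmic reticulum, in every heat library than in any control library. Of the summed FPKM of the 3 HSP70 genes, BiP made up 4.22%, 3.16% and 2.58% in heat libraries 1 to 3, against 1.603%, 0.857% and 1.36% in control libraries 1 to 3. That share was higher in every heat library while the FPKM of BiP itself overlapped between the groups. It follows from the ratios of the HSC70 genes to BiP and is not a separate result.

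HSC70-9 and CPN21 are both chloroplast chaperones by name, and their ratio was also lower in heat. HSC70-9 exceeded CPN21 5.64-fold, 5.68-fold and 3.85-fold in heat libraries 1 to 3, against 6.41-fold, 12.9-fold and 12.7-fold in control libraries 1 to 3, a mean log2 difference of -1.03 (exact permutation p = 0.1, adjusted p = 0.15). Control library 1 came close to the heat libraries. HSC70-1 exceeded CPN21 by 5.04 to 7.92 times in heat and by 12.3 to 19.5 times in control, a mean log2 difference of -1.23 (exact permutation p = 0.1, adjusted p = 0.15).

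The ratio between the HSC70 genes overlapped between heat and control. HSC70-1 exceeded HSC70-9 1.33-fold, 1.39-fold and 1.31-fold in heat libraries 1 to 3, against 1.92-fold, 1.51-fold and 1.26-fold in control libraries 1 to 3. The heat libraries lay within the range of the control libraries, and the mean log2 difference was -0.19 (exact permutation p = 0.4, adjusted p = 0.48), running from -0.34 to -0.03 with 1 library left out. The ratio of BiP to CPN21 was 0.579, 0.444 and 0.236 in heat libraries 1 to 3, against 0.304, 0.280 and 0.397 in control libraries 1 to 3. It spread more widely in heat than in control, with a mean log2 difference of 0.28 (exact permutation p = 0.6, adjusted p = 0.6) that ran from 0.0002 to 0.65 with 1 library left out.

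**Figure D4:**
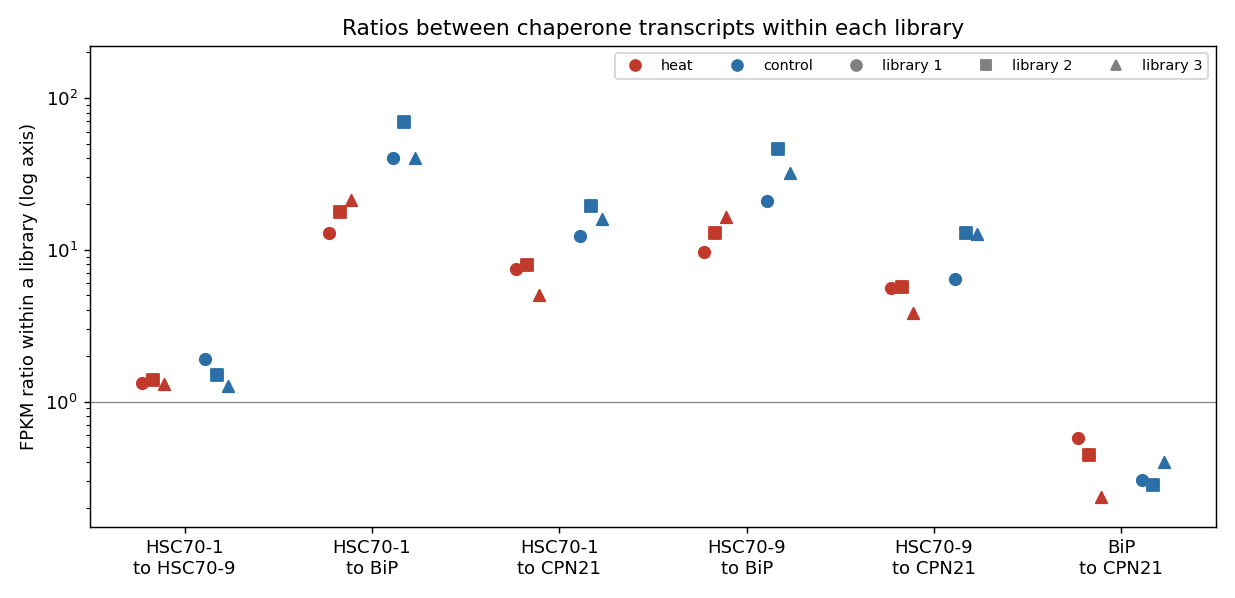
Ratio of FPKM values between 2 chaperone genes within each heat library (red) and control library (blue), on a log axis, with marker shapes for the library number. The ratios of either HSC70 gene to BiP or CPN21 lie lower in all 3 heat libraries, while HSC70-1 to HSC70-9 and BiP to CPN21 overlap.

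The 4 genes also differed in which library of a group was high or low. In heat, library 3 had the lowest level of HSC70-1, HSC70-9 and BiP on the TMM scale and the highest level of CPN21. In control, library 1 had the lowest level of HSC70-1 and HSC70-9 and the highest level of CPN21 on that scale. By FPKM, the lowest control library of HSC70-1 was library 3, at 560 FPKM against 616 FPKM in library 1. These are descriptions of 3 libraries in each group, with no test.

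Genes with a similar course over the 6 libraries were sought among 10768 other tested genes with a mean of at least 10 CPM, by the root mean square difference of log2 CPM after each gene was centred on its own mean. Since these genes were chosen for this likeness, their fold changes, calls and high or low libraries follow from the choice and are given as a description. For HSC70-1 the closest were LOC110778705 at 0.124, LOC110799086 at 0.126 and LOC110798758 at 0.128, against a median of 1.05 over all genes compared. None of these has a name in the reference table. The closest named genes ranked 4th and 5th. They were Trx-M (LOC110782047), an m-type thioredoxin of the chloroplast, at 0.132, and RPE (LOC110799621, also PPE), ribulose-phosphate 3-epimerase of the Calvin-Benson cycle, at 0.136. RPE had 129 ± 20.0 CPM in heat and 481 ± 56.0 CPM in control (SD, n = 3 each), a log2 fold change of -1.90.

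For HSC70-9 the closest genes were LOC110803213 at 0.0802, LOC110798832 at 0.105 and LOC110794353 at 0.111, all unnamed, against a median of 0.980. LOC110803213 had 72.3, 83.3 and 58.1 CPM in heat libraries 1 to 3 and 183, 272 and 261 CPM in control libraries 1 to 3. Its lowest libraries of each group were heat library 3 and control library 1. The closest named genes were again RPE at 0.173, in 23rd place, and Trx-M at 0.178, in 25th place.

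For CPN21 the closest genes were LOC110804973 at 0.0309, LOC110792144 at 0.0341 and LOC110776233 at 0.0447, against a median of 0.532. LOC110804973 had 26.9, 30.4 and 34.5 CPM in heat libraries 1 to 3, against 62.8, 49.9 and 50.9 CPM in control libraries 1 to 3, which is nearly the course of CPN21. The closest named genes were PrpS6 (LOC110803418), a plastid ribosomal protein, at 0.104 and in 22nd place, and RRFHCP (LOC110798584, also cpfrr), the chloroplast ribosome recycling factor, at 0.125 and in 43rd place. PrpS6 had a log2 fold change of -0.64, or -0.18 with library totals alone, and RRFHCP had one of -0.95, or -0.49 with library totals alone.

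For BiP no gene came as close. The smallest differences were 0.188 for LOC110777049, 0.194 for LOC110778433 and 0.198 for LOC110792287, against a median of 0.538. The closest named genes were CL12 (LOC110782793) at 0.247, in 35th place, and CL40 (LOC110779269) at 0.257, in 54th place, both proteins of the plastid ribosome. CL12 had 196 ± 32.4 CPM in heat and 240 ± 31.4 CPM in control, and CL40 had 59.3 ± 6.32 CPM in heat and 80.7 ± 14.1 CPM in control. With library totals alone both had log2 fold changes just above 0, at 0.16 and 0.01, as did LOC110792287 at 0.11.

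**Figure D5:**
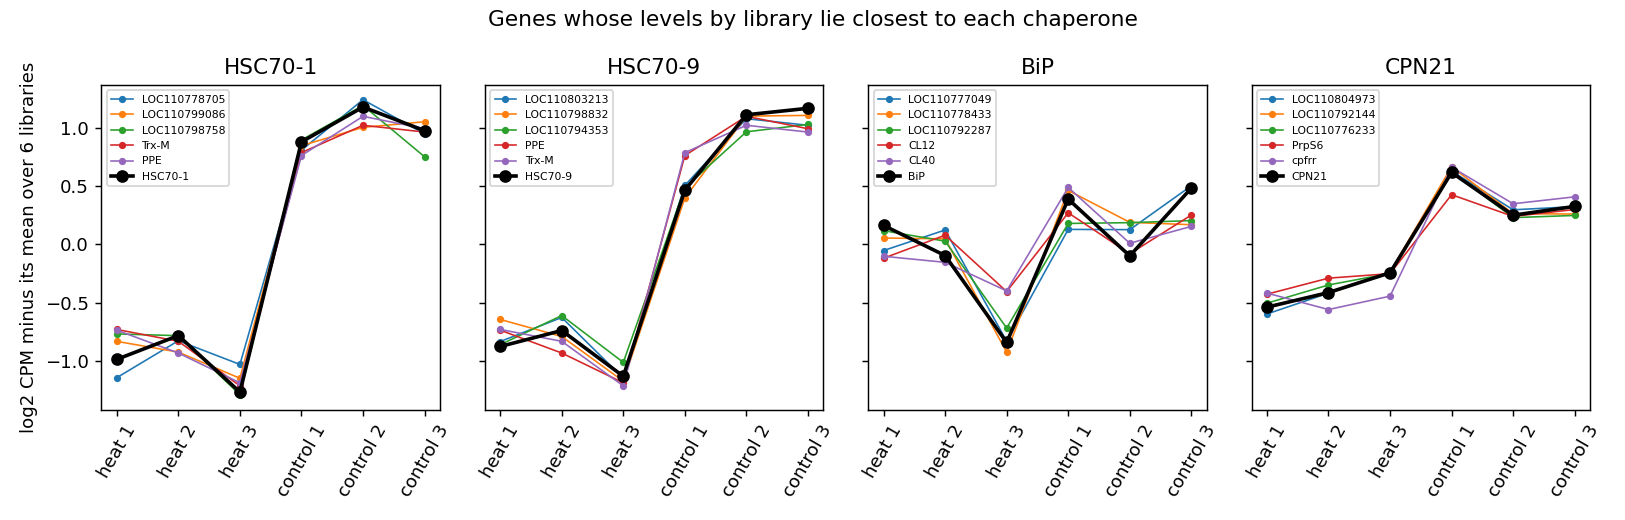
Log2 CPM on the TMM scale minus its mean over the 6 libraries, for each chaperone gene (black) and the 5 genes named as closest to it (coloured), in heat libraries 1 to 3 and control libraries 1 to 3; lines only join the values of a gene. The panels of the HSC70 genes show a wide step between heat and control, that of CPN21 a smaller step, and that of BiP a low value in heat library 3.

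A wider list of folding genes was built by name prefixes of chaperones and folding enzymes, heat shock factors included. It found 5 genes in the reference table, the 4 described and clpP, a plastid-encoded subunit of the Clp protease, which works with chaperone partners. Of these 5 tested genes, 3 were lower, 0 higher and 2 not called, with 13.6% of all tested genes lower. clpP had 11, 15 and 16 reads in heat libraries 1 to 3 and 1, 8 and 12 reads in control libraries 1 to 3 (log2 fold change 0.70, 95% interval -1.33 to 2.73, adjusted p = 0.589 by edgeR's quasi-likelihood test). With so few reads of clpP, the interval takes in both a fall and a rise. Heat-induced HSP70 genes, small heat shock proteins, HSP90, CPN60 and the partners of BiP were not found by these prefixes and were not analysed here. Values of these 4 genes thus do not describe chaperones as a whole.

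The genes that flank each chaperone gene in the order of protein-coding genes on BTI_SOV_V1 were looked at as well, 2 on each side, a choice made after the data had been seen. Of 16 flanking genes, 8 were tested, 2 were lower, 0 higher and 6 not called, with a median log2 fold change of 0.15. The share called, 25.0%, was close to the 25.2% of all tested genes. LOC110784548, next to CPN21, had 19.6, 18.1 and 31.7 CPM in heat libraries 1 to 3, against 82.1, 83.4 and 66.8 CPM in control libraries 1 to 3 (log2 fold change -1.74, SE 0.24, adjusted p = 0.00369 by edgeR's quasi-likelihood test). LOC110805004, the second gene from HSC70-1, had 12.7, 20.1 and 4.65 CPM in heat libraries 1 to 3, against 148, 256 and 462 CPM in control libraries 1 to 3 (log2 fold change -4.53, SE 0.66, adjusted p = 0.00424 by edgeR's quasi-likelihood test). The tested neighbours of HSC70-9 and BiP were not called.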

How the data were processed

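RNA sequencing values of 3 heat and 3 control libraries were used. The authors' deposited read counts per gene are whole numbers without normalization. The deposited FPKM values were made by the authors from those counts: for 23652 of 23652 genes with reads in at least 2 libraries each value was the count over the library total and over 1 length per gene, to a relative tolerance of 1e-06. Per the submitters' processing notes, the tools were DESeq 1.18.0, HTSeq 0.9.1 and HISAT2 2.0.4, with no role given. Not given in the sources used here are the genome build, strand use and treatment of multiply aligned reads.

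Counts were tested with edgeR 4.0.16 (R 4.3.3): TMM scaling, edgeR's filter on low counts, group as the only term, a two-sided quasi-likelihood test and Benjamini-Hochberg adjustment over 20145 genes with calls made below 0.05. Each log2 fold change is heat minus control. Alternatives used DESeq2 1.42.0 and limma 3.58.1, and the main tests were also tested on simulated data. Names came from the reference gene table, which held 25304 of 30732 NCBI gene numbers. The 4 genes, the lists and the comparisons were chosen with earlier results of these data known. Named were the 4 genes, all genes of the folding list, and for each of the 4 genes the 3 closest genes and the 2 closest with a reference name. Leaf markers and 2 flanking genes were also named, the flanking genes after their values were seen. A planned search for sequence relatives and promoter motifs was not run, since no sequences were used here.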

Additional observations from a re-analysis of the deposited data

How the results depend on the processing

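HSC70-1 and HSC70-9 were lower in heat and past the threshold, and BiP had a log2 fold change below 0 and did not pass, in all 15 alternatives run. CPN21 kept its direction in all 15 and lost its call in 6. Its log2 fold change was -0.34 with library size alone, -0.32 on log2(FPKM + 1) with and without a filter, -0.33 on log2(FPKM + 0.1) and -0.80 with a replicate block (adjusted p = 0.0587), and it ran from -0.88 to -0.68 with 1 library left out, where the call ended without heat library 1. The 3 folding genes called lower became 2 in those settings. On the TMM scale 5074 genes were called, 2339 higher and 2735 lower.

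The labels do not say whether replicate numbers pair the libraries. After each group's mean was taken from log2 CPM, same-numbered libraries correlated across genes at -0.13, -0.12 and -0.29. Differently numbered heat and control libraries ran from -0.18 to 0.28. These values are linked within a group and were not tested, so they do not settle pairing. With the block, 2628 genes were called. Library size alone called 7759 genes (6288 higher, 1471 lower), limma on log2(FPKM + 1) 8012 and on log2(FPKM + 0.1) 8119. With 1 library left out the count ran from 2291, without control library 2, to 4355, and was 2651 without heat library 1. The 6 ratios within libraries are left the same by the block by construction, and with 1 library left out the log2 differences ran from -1.67 to -1.25 for HSC70-1 to BiP, from -1.60 to -1.04 for HSC70-9 to BiP, from -1.40 to -1.02 for HSC70-1 to CPN21 and from -1.37 to -0.85 for HSC70-9 to CPN21. Among the closest genes, CL12 turned to a log2 fold change of 0.16 with library size alone and 0.17 in the 3 fits on FPKM, CL40 to 0.0053 with library size alone, 0.028 on log2(FPKM + 1) with and without a filter and 0.0285 on log2(FPKM + 0.1), and LOC110792287 to 0.11, 0.0777 and 0.0829 in the same order. All 3 stayed without a call. The calls of the genes closest to CPN21 were lost in 4 to 7 alternatives each. Results that needed sequences were not run.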
